A study of Mus musculus with 3 samples.

Results

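The Nodal and Activin signalling genes of mouse embryonic stem (ES) cells were followed over the first days of a knockout of Pou5f1, the gene of the transcription factor Oct3/4. The group held 10 genes, Nodal, Gdf3, Tdgf1, Acvr1b, Acvr2b, Smad2, Smad3, Foxh1, Lefty1 and Lefty2, and was chosen by name, with earlier results of these data known. Every probe set, a set of short probes for the same transcript, that the array annotation gives to only 1 of these genes was taken, which made 20 of the 45037 probe sets analysed. The cells carried a conditional Pou5f1 knockout, because ES cells that lack Oct3/4 permanently cannot be maintained, and total RNA was measured on Affymetrix arrays at day 0, day 1 and day 2, with 1 array for each day. All 3 groups are labelled as this conditional knockout, and the day is the only difference that their labels give. The day 2 values hold control probe sets that those of the other days do not, and the sources used here do not say whether that array was processed apart, so this too cannot be told apart from the day. The sources used here do not name the strain, the way of inducing the knockout or the number of clones, and no culture without induction was measured at day 1 or day 2, so loss of Oct3/4, time in culture and any inducing treatment cannot be told apart. With 1 array per day there was no replicate error and no test. Differences are given in log2(signal + 55.9), where 55.9 is the 40th percentile of all signals, and a gene was counted as higher or lower when the difference reached 2-fold on this scale.

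Nodal is a secreted ligand of the TGF-beta family. It binds a complex of type I and type II Activin receptors (the products of Acvr1b and Acvr2b are a type I and a type II receptor), for which it also needs a co-receptor of the EGF-CFC family, the product of Tdgf1, also called Cripto. The receptors phosphorylate Smad2 and Smad3, which enter the nucleus with Smad4 and act on DNA with partners such as Foxh1. Nodal and the Lefty genes are themselves targets of the pathway, and Lefty proteins block Nodal outside the cell, so that the pathway holds both a positive and a negative loop. In ES cells and in the early embryo it is known for its roles in the epiblast and in the formation of mesoderm and endoderm.

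The array of each day was checked first against the targeted gene and against markers. The signal of Pou5f1 was 2400 on day 0, 40.8 on day 1 and 15.5 on day 2, in the order that the day labels give. The sources used here do not say which part of it the knockout removes. All 9 ES cell markers were above the constant at day 0, their summed signal was 105408 on day 0, 71334 on day 1 and 24750 on day 2, and Pou5f1 was the 1 marker below the constant at day 1 and at day 2. The summed signal of 8 trophectoderm markers was 10404, 15264 and 60060 in the order of the days, with 8 of 8 at least 2-fold higher at day 2 than at day 0. That of 8 fibroblast markers, a check for feeder cells, was 703, 655 and 479, with 4 or 5 of the 8 below the constant on each array, and that of 6 primitive endoderm markers was 597, 1178 and 1304. Of the 3 measured fibroblast markers, Thy1 was at −1.65 at day 2 against day 0, with signals of 400, 275 and 89.3 in the order of the days. Col1a2 (0.26) and Pdgfrb (0.62) were on the higher side and within 2-fold, so the lower fibroblast sum came from Thy1. No marker was at 0. Of the 5 measured primitive endoderm markers, Gata6 and Dab2 were at least 2-fold higher at day 2 than at day 0, and Gata4 (−0.43), Sox17 (−0.27) and Pdgfra (0.23) were within 2-fold. The call of Dab2 is that of its brightest probe set, and its 3 kept probe sets ran from 0.36 to 1.33. Trophectoderm markers as a list, and these 2 primitive endoderm markers, therefore moved along with the results below, and their part in these results was not tested. The deposited values already shared a 2% trimmed mean, 497 on each array, which is no check of array quality.

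Both the ligand genes and the co-receptor gene, the Lefty genes and Foxh1 were lower at day 2 than at day 0, while the receptor genes and the Smad genes stayed within 2-fold. Among the 10 genes, 6 were at least 2-fold lower at day 2 than at day 0 and 0 were at least 2-fold higher. Over all 12717 genes with a measured value, 5.65% were at least 2-fold lower and 5.25% at least 2-fold higher. The median difference of the 10 genes was −2.19, against 0.05 over all genes. At day 1, 5 of the 10 were already at least 2-fold lower than at day 0, where the share over all genes was 2.59%, and 0 were at least 2-fold higher, where it was 2.40%. Between day 1 and day 2, 4 of the 10 were at least 2-fold lower at day 2, against 2.65% of all genes, and 0 were at least 2-fold higher, against 2.09%. These comparisons share arrays and are not independent. Since the genes were chosen with earlier results of these data known, the shares over all genes are no test of the group. In RNA from a whole culture, fewer cells that express a gene and less RNA of it per cell cannot be told apart.

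**Figure D1:**
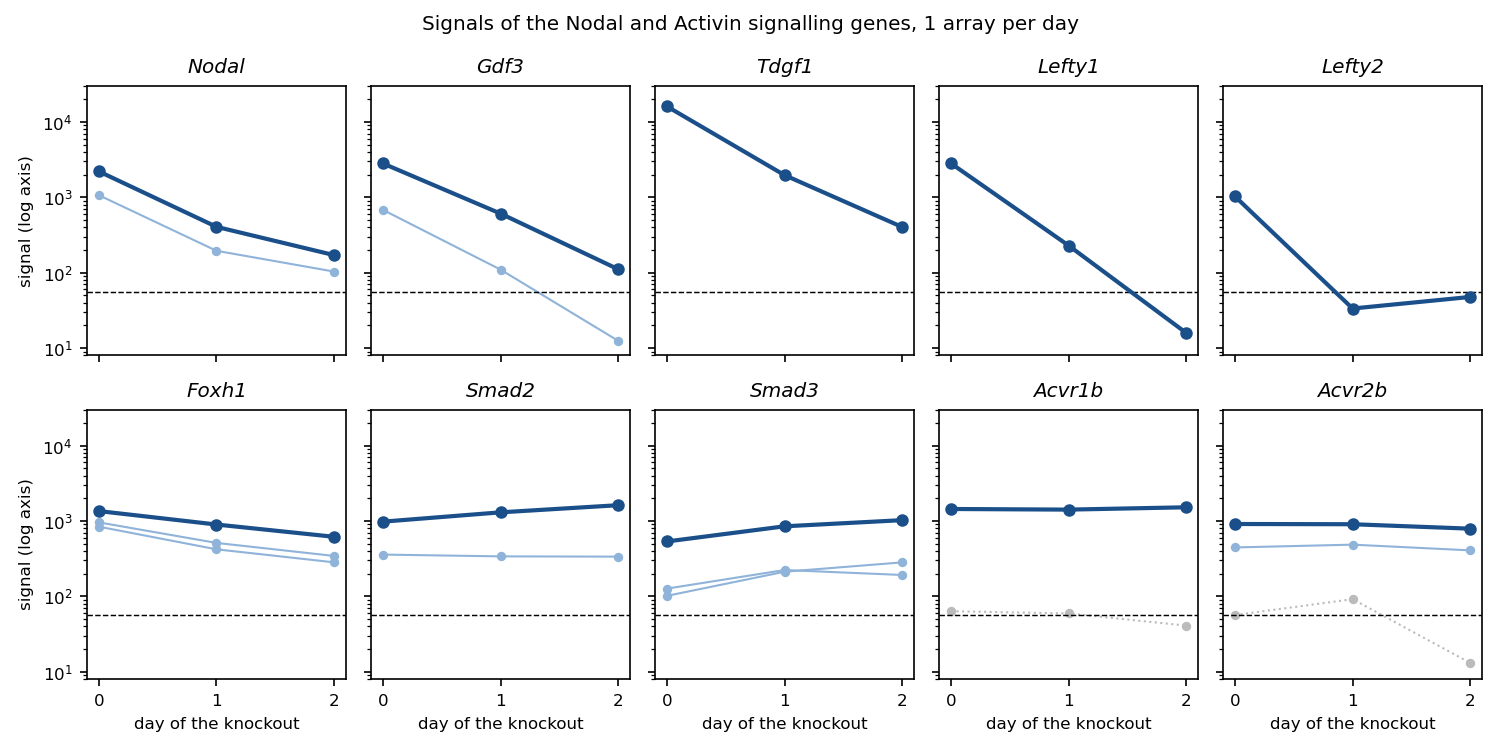
Signal of every probe set of the 10 genes (log axis) against the day of the knockout, with 1 array per day. Dark lines show the probe set that stands for the gene, light lines other probe sets of it, dotted grey lines the 2 probe sets left out as dim, and the dashed line marks the constant of 55.9. Nodal, Gdf3, Tdgf1, Lefty1 and Lefty2 descend steeply after day 0, Foxh1 less so, and the receptor genes Acvr1b and Acvr2b run level.

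Promoters of 5 of the 10 genes were read from the RefSeq table (mouse build GRCm38.p6). Smad2, which stayed within 2-fold at day 2, was left out of this reading. Of the 5 genes read, Nodal and Tdgf1 were far lower at day 2, and Acvr1b, Acvr2b and Smad3 stayed within 2-fold. The 250 bases before the annotated start of 4 of them are shown because they set a pair that was lower beside a pair that was not. Each is written 5′ to 3′ on the strand of the gene, with CpG dinucleotides in capitals. The Nodal stretch is at chr10:61417722-61417971 (plus strand), the Tdgf1 stretch at chr9:110946159-110946408 (minus strand), the Acvr1b stretch at chr15:101173822-101174071 (plus strand) and the Smad3 stretch at chr9:63757995-63758244 (minus strand).
Nodal: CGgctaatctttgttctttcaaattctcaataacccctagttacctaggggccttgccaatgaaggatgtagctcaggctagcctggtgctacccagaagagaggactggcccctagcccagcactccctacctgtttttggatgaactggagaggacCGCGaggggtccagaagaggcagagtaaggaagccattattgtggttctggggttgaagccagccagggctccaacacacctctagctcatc
Tdgf1: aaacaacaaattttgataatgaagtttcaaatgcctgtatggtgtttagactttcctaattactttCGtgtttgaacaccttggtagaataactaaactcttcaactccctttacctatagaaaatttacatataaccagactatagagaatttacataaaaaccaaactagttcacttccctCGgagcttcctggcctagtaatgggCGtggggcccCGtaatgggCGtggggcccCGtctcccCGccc
Acvr1b: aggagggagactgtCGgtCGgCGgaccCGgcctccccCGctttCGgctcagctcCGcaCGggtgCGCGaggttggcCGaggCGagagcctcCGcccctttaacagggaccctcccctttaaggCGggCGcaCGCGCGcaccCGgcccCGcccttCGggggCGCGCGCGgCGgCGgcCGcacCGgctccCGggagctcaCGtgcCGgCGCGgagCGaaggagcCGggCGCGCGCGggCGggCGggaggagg
Smad3: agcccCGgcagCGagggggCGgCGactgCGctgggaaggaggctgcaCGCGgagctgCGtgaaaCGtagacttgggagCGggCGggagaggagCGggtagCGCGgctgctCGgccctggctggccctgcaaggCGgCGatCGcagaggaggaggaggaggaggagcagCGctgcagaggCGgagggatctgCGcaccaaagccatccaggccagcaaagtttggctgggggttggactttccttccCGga
The Nodal stretch holds 3 CpG dinucleotides and the Tdgf1 stretch 7, against a median of 6 over all 32851 promoter entries of the table. The Acvr1b stretch holds 42, that of Smad3 22 and that of Acvr2b 24, counts that exceed those of at least 85.2% of all entries. The GC content was 53.2% for Nodal and 42.0% for Tdgf1, and it was 78.8% for Acvr1b, 69.2% for Smad3 and 72.8% for Acvr2b, with a median of 52.4% over all entries. With 5 of the 10 genes read, a comparison of promoters over the whole group is void, and these values describe the 5 genes alone. The octamer ATGCAAAT bound by POU factors, the letters AATNCACA of a Foxh1 motif and the Smad box CAGACA were searched on both strands. They are in none of the 5 stretches. They are found in 1.60%, 3.18% and 17.1% of all entries, in this order, and their absence from so short a window says nothing of binding elsewhere.

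The ligand genes were lower at each step. The brighter probe set of Nodal (1422058_at) had a signal of 2208.5 on day 0, 406 on day 1 and 171 on day 2. The other probe set (1422057_at) had 1068, 195 and 104 in the same order. Both probe sets gave the same order of the days, highest at day 0 and lowest at day 2. The difference of Nodal was −2.29 at day 1 and −3.32 at day 2 against day 0, which are 4.90-fold and 9.97-fold lower, and the other probe set gave −2.16 and −2.82. From day 1 to day 2 the difference was −1.02 in the brighter probe set and −0.66 in the other, so that the 2-fold limit was passed in the brighter of the pair alone.

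Gdf3 codes for a TGF-beta family ligand that uses the same receptors and co-receptor. Its brighter probe set (1449288_at) had a signal of 2816.5 on day 0, 609 on day 1 and 111 on day 2. The other (1460057_at) had 682.5 on day 0, 110 on day 1 and 12.5 on day 2, the last below the constant. Each day was lower than the day before in both. The difference was −2.11 at day 1 and −4.10 at day 2 against day 0, or 4.32-fold and 17.2-fold lower, and the dimmer probe set gave −2.15 and −3.43. The step from day 1 to day 2 was −1.99 in the brighter and −1.28 in the dimmer probe set.

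Tdgf1, the co-receptor gene, is measured by 1 probe set, whose signal was 16079 on day 0, 1970 on day 1 and 404 on day 2. All 3 signals were well above the constant, so the added constant bears little on the difference. It was −2.99 at day 1 and −5.13 at day 2 against day 0, which are 7.96-fold and 35.1-fold lower. Tdgf1 took place 3 from the lowest among all 12717 genes at day 2 and place 11 at day 1. Even at day 2 its probe set was brighter than 73.9% of those analysed.

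The Lefty genes differed from each other in their course. Lefty1 had a signal of 2821 on day 0, 229 on day 1 and 15.9 on day 2, with its step to day 1 at −3.33 and its step from day 1 to day 2 at −1.99. At −5.32, or 40.1-fold, its difference at day 2 against day 0 was the lowest of all 12717 genes on this scale, a place that rests on a day 2 signal below the constant and went to Tdgf1 with the constant doubled. Lefty2 had a signal of 1027 on day 0, 33.5 on day 1 and 47.7 on day 2. It was already below the constant at day 1, at −3.60 or 12.1-fold lower, place 4 from the lowest, and was at −3.39 at day 2. Its values at day 1 and day 2 have no resolved order, and it passed the filter on dim probe sets only through its day 0 signal. Since the day 2 signal of Lefty1 was also below the constant, the size of both differences was limited by the constant: Lefty1 at day 2 was −4.52 with the constant doubled and −6.02 with it halved, and Lefty2 was −2.84 and −3.80. Lefty1 and Lefty2 are closely related copies that lie near each other on chromosome 1, with 1 protein-coding gene between them, and the annotation gives 1 probe set to each. Whether either probe set also binds the other transcript was not tested.

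Foxh1, the forkhead partner of Smad2 and Smad3, was lower by a smaller amount, and its 3 probe sets gave the same course. The signal of the brightest (1422213_s_at) was 1355 on day 0, 899 on day 1 and 618 on day 2, that of the next (1422212_at) 960, 512 and 344, and that of the third (1437779_at) 842, 421 and 283. In each of them day 2 was lowest. The differences at day 2 against day 0 were −1.07, −1.34 and −1.41 in this order, all past 2-fold, and those at day 1 were −0.56, −0.84 and −0.91, all within it. The pooled SD between probe sets of the same gene, over 5906 genes, was 0.34 in log2 for day 2 against day 0 and 0.30 for each of the other comparisons. It is the only error these files allow, and it holds neither culture nor array variation.

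The kept probe sets of the receptor genes stayed nearly level. The kept probe set of Acvr1b, the type I receptor gene, had a signal of 1444 on day 0, 1417 on day 1 and 1521 on day 2, and its difference was −0.03 at day 1 and 0.07 at day 2. The brightest probe set of Acvr2b, the type II receptor gene, had 913, 907 and 792, with a difference of −0.01 at day 1 and −0.19 at day 2, and a second kept one had 446, 486 and 408, with 0.11 and −0.11. All of these differences were within the SD between probe sets. A dim probe set of each gene did not pass the filter. Its signals were 63.6, 59.4 and 41.0 for Acvr1b and 56.6, 91.9 and 13.1 for Acvr2b. The mean of each over the days was below the constant. The Acvr2b one was 2.14-fold lower at day 2 than at day 1, unlike the kept probe sets of the gene.

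Smad3 was the 1 gene of the group higher in every probe set at both later days, short of 2-fold in its brightest. That probe set (1454960_at) had a signal of 536 on day 0, 851 on day 1 and 1027 on day 2. The others had 102, 212 and 283 (1450472_s_at) and 127, 224 and 192 (1450471_at). The probe sets agreed on a higher signal at both later days and differed on the order of day 1 and day 2. Against day 0 the brightest was at 0.62 at day 1 and 0.87 at day 2, and the others gave 1.10 and 0.44 at day 2. Smad2 had no such agreement. Its brighter probe set (1420634_a_at) had a signal of 981 on day 0, 1304 on day 1 and 1622 on day 2, a difference of 0.69 at day 2, and the other (1442062_at) had 359, 340 and 337, a difference of −0.08. Scaling the arrays to equal medians of ribosomal protein genes moved the median of all genes by −0.16 at day 2 and by −0.18 at day 1 and left Smad3 at 0.70 at day 2.

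**Figure D2:**
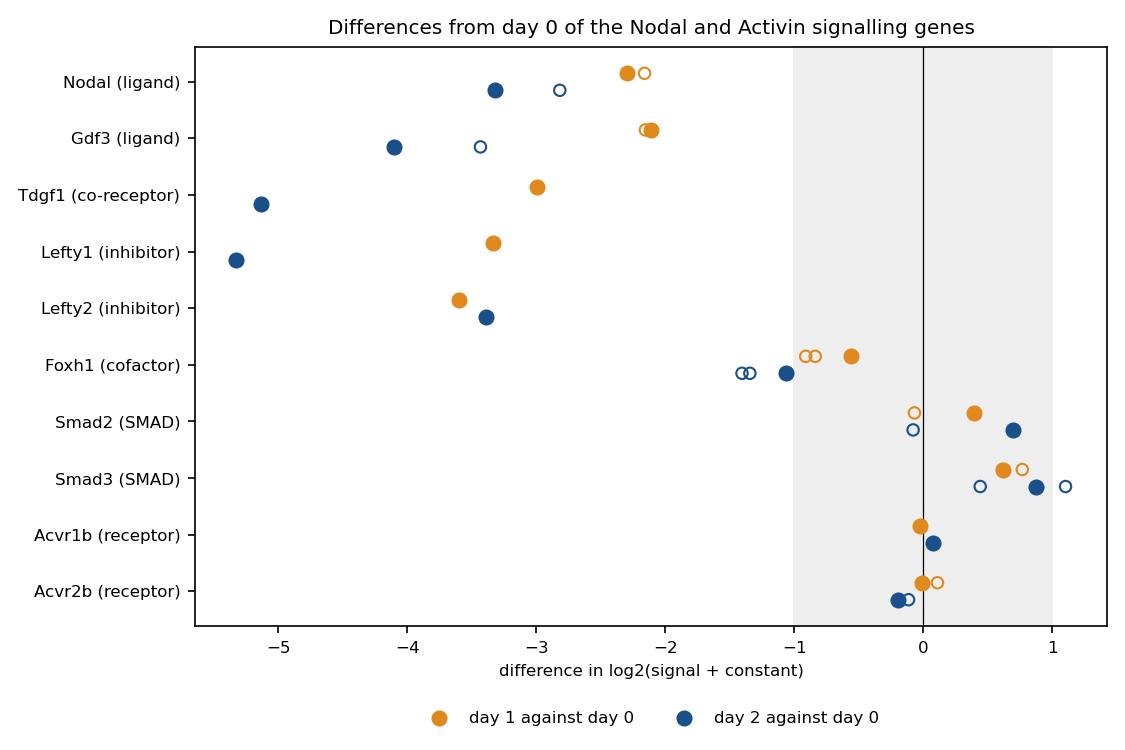
Difference in log2(signal + constant) of each of the 10 genes from day 0, at day 1 (orange) and day 2 (blue). Filled points are the probe set that stands for the gene, open points its other kept probe sets, and the grey band covers differences under 2-fold. The ligand, co-receptor and Lefty genes lie left of the band at both days, Foxh1 left of it at day 2 only, and the filled points of the receptor and Smad genes inside it.

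The 6 lower genes differed in how much of their day 2 difference was present at day 1. The difference at day 1, as a share of that at day 2, was 51.4% for Gdf3, 52.8% for Foxh1, 58.3% for Tdgf1, 62.6% for Lefty1, 69.1% for Nodal and 106% for Lefty2. All 6 were above 50%, but Gdf3 was at 49.6% with the constant halved. Over all 718 genes at least 2-fold lower at day 2 the median share was 52.1%, with quartiles of 30.8% and 71.5%, and 52.9% of them had reached 50%. Apart from Lefty2, the genes of the group lay within these quartiles. The 8 ES cell markers other than Pou5f1 had a median share of 28.0% and none above 44.0%. Sox2, the DNA-binding partner of Oct3/4, was at −0.49 at day 1 and −3.01 at day 2, and Nanog, another factor of the pluripotent state, at −0.09 and −1.61. On the day 1 array Nodal, Gdf3, Tdgf1 and the Lefty genes were more than 4-fold lower than on the day 0 array, while 5 of the 9 ES cell markers, Sox2 and Nanog among them, were within 2-fold of it. The 4 markers at least 2-fold lower at day 1 were Pou5f1 (−4.67), Fgf4 (−1.71), Esrrb (−1.16) and Zfp42 (−1.04). These shares come from the same 3 arrays, carry no error and were not tested, and they depend on the constant, most for Lefty1, which was at 57.6% with it halved and 68.6% with it doubled.

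**Figure D3:**
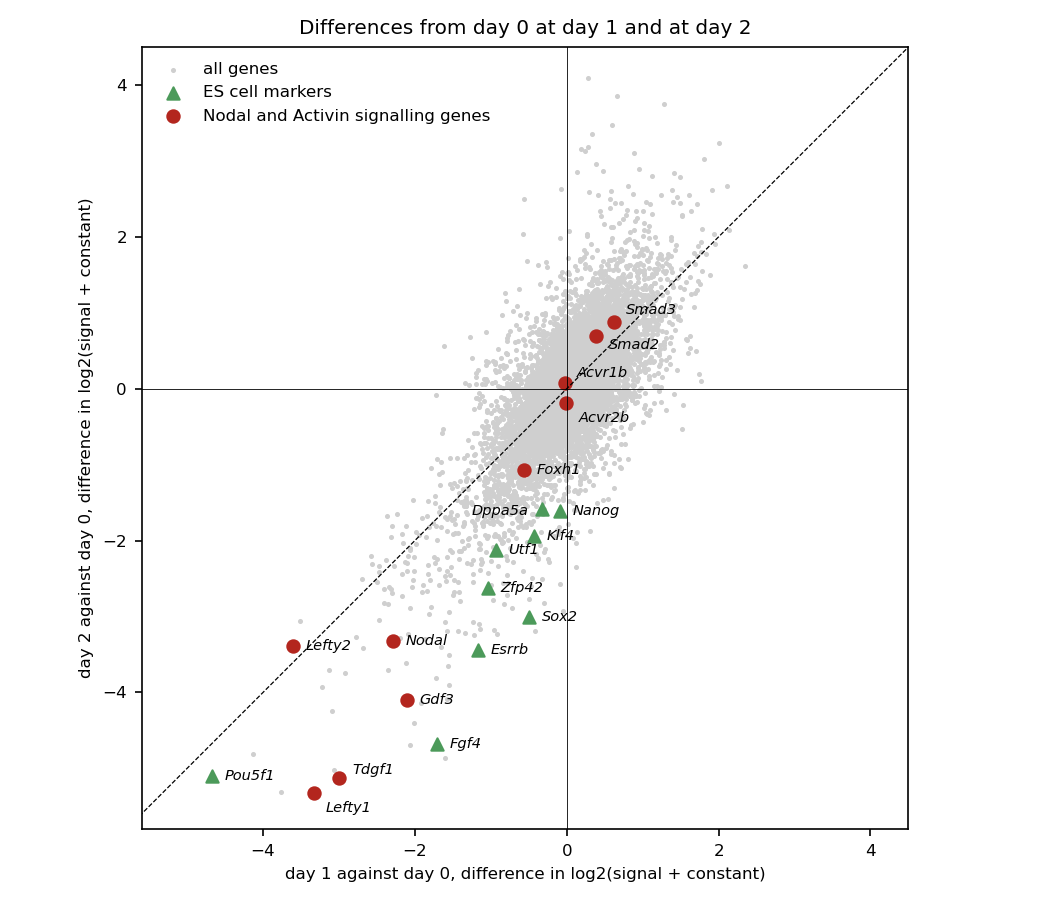
Difference from day 0 at day 1 (horizontal axis) against that at day 2 (vertical axis), both in log2(signal + constant), for all 12717 genes (grey), the 10 Nodal and Activin signalling genes (red) and 9 ES cell markers (green triangles). On the dashed diagonal the day 2 difference was already complete at day 1. Nodal, Gdf3, Tdgf1, Lefty1 and Lefty2 lie left of −2 on the horizontal axis, while Sox2, Nanog and Klf4 lie between −0.49 and −0.09 there. Of the other markers, Pou5f1 (−4.67) lies farthest left on this axis, and Fgf4 (−1.71), Esrrb (−1.16) and Zfp42 (−1.04) lie past 2-fold. Both axes share the day 0 array.

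The genes with the most similar pair of differences, by Euclidean distance over day 1 and day 2 against day 0, were looked up for each of the 6 lower genes. The nearest to Tdgf1 and to Lefty1 was Trh, the precursor gene of thyrotropin-releasing hormone, at a distance of 0.13 from Tdgf1 and 0.41 from Lefty1, followed in both cases by Nr0b1, a nuclear receptor gene of ES cells, at 0.79 and 0.43. Nearest to Nodal were Acsbg3 (0.11) and Kbtbd11 (0.22), and nearest to Gdf3 were Ooep (0.20) and Mymx (0.32). Foxh1 had Ptk7 (0.002) and Esrp1 (0.02) nearest, in a region of the plot crowded with genes, and Lefty2 had Enox1 (0.34) and 1700019D03Rik (0.57). Lefty1, Trh, Nr0b1, Acsbg3 and Kbtbd11 were below the constant at day 2, so their distances are set in part by it. Enox1, like Lefty2, was below the constant at both later days, with signals of 614 on day 0, 2.80 on day 1 and 24.3 on day 2. A likeness over 3 arrays describes these arrays only.

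The neighbours on the chromosome were also read, in the gene order of GRCm38.p6, by a choice made after values had been seen. Of the 11 protein-coding genes next to the 6 lower genes, the group's own members left out, 9 had a measured value, and 5 of these were at least 2-fold lower at day 2, where the share over all genes was 5.65%. They were Lrrc2 beside Tdgf1 at −3.75, Dppa3, a gene of germ cells and ES cells, at −1.78 and Apobec1, an RNA-editing deaminase gene, at −1.73 on either side of Gdf3, Pald1 beside Nodal at −1.51 and Tmem63a beside Lefty1 at −1.47. Lrrc2 had a signal of 1873 on day 0, 200 on day 1 and 87.9 on day 2, so that it was close to Tdgf1 at day 1, at −2.91 against −2.99 for Tdgf1, and less low than Tdgf1 at day 2. Apobec1 and Tmem63a were below the constant at day 1 and day 2 and passed the filter only through their day 0 signal. Of the 7 measured genes next to the other 4 members, 0 were at least 2-fold lower and 0 at least 2-fold higher, from −0.21 to 0.94. The next gene out on each side was read as well. Of 8 measured ones beyond the neighbours of the 6 lower genes, 2 were at least 2-fold lower, Nanog (−1.61) on the side of Gdf3 and Ephx1 (−1.35) on that of Lefty1, and of 5 measured ones near the other 4 members 1 was, Nr4a1 (−1.44) on the side of Acvr1b. Whether transcripts of neighbours overlap on the array was not tested.

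The rest of the pathway was read from a list of 41 other genes of Nodal, Activin and TGF-beta signalling. Of these, 27 had a measured value, 11 were below the filter and 3 had no probe set of their own. Among the 27 measured genes, 5 were at least 2-fold lower and 1 at least 2-fold higher at day 2 than at day 0, with a median of 0.02, beside 5.65% and 5.25% of all genes and their median of 0.05. The 5 lower ones were spread over ligands, a processing enzyme and nuclear repressors.

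Inhbb, which codes for the beta B subunit of Activin B, was the lowest of them. Its brighter probe set had a signal of 1120 on day 0, 299 on day 1 and 28.3 on day 2, a difference of −1.73 at day 1 and −3.80 at day 2. Its other probe set had 270.5, 86.8 and 154, a difference of −1.19 at day 1 and −0.63 at day 2, so both were lower at both later days but disagreed on the size at day 2. Tgfb1, another ligand gene, was at −1.17 at day 2, with signals of 265, 144 and 86.9 in the order of the days. It was at −0.92 with the constant doubled. Pcsk6, the gene of a convertase that cleaves the Nodal precursor, had 983, 835 and 420, a difference of −0.22 at day 1 and −1.13 at day 2, while Furin, another convertase gene, was at 0.02 at day 2.

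Among genes that act with the Smad proteins, repressors differed in direction. Tgif1, a homeodomain corepressor of Smad2, had a signal of 4220 on day 0, 4183 on day 1 and 1809 on day 2, so that its difference of −1.20 at day 2 lay wholly in the second step. Skil, a corepressor gene that is itself a target of the pathway, had 2264, 1090.5 and 969, lower by day 1 at −1.02 and at −1.18 at day 2, and its other probe set gave −0.56 and −1.12. Ski, its relative, was the 1 higher gene, with 1052, 1201 and 2455 and a difference of 1.18 at day 2. The other probe set of Ski gave 0.67, and the mean over both was 0.93. Smad4, the shared partner of Smad2 and Smad3, was level in all 3 probe sets, the brightest with 3411, 3321 and 3604 and a difference of 0.08 at day 2. Smad7, an inhibitory Smad and a feedback target, was at 0.53 at day 1 and −0.19 at day 2, and its other probe set gave 0.13 and −0.29.

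At day 1 against day 0, 2 of the 27 genes were at least 2-fold lower, Inhbb and Skil, and 3 at least 2-fold higher, beside 2.59% and 2.40% of all genes. The 3 were Eomes, Tgfbr2 and Fstl3, and each was back within 2-fold of day 0 at day 2. Eomes, a T-box transcription factor of mesendoderm and trophoblast, had signals of 381 on day 0, 844 on day 1 and 295 on day 2, and its other probe set had 257, 752 and 242. Both probe sets had their highest signal at day 1, at 1.04 and 1.37 against day 0. Tgfbr2, a type II receptor gene for TGF-beta, had 125, 325.5 and 142, or 1.08 at day 1. Fstl3, which codes for a follistatin-like protein that binds Activin, had 283.5, 627 and 462, or 1.01 at day 1. The calls of Tgfbr2, Fstl3 and the brighter probe set of Eomes at day 1 were lost with the constant doubled, at 0.89, 0.90 and 0.95, and with equal ribosomal protein medians, at 0.92, 0.83 and 0.85. That of Fstl3 was also lost with quantile normalisation, at 0.99, and that of Skil at day 1 was lost with the constant doubled, at −0.98, with quantile normalisation, just short of 2-fold, and when its probe sets were averaged, at −0.79.

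The other measured receptor genes added no further difference past 2-fold at day 2, and antagonist genes below the filter could not be called. Acvr2a, the other Activin type II receptor gene, had 303, 439 and 410, at 0.37 at day 2. The other 4 measured receptor or co-receptor genes lay between −0.05 and 0.23. Of these, Acvr1c had 67.8, 44.1 and 84.5, near the constant and below it at day 1, so the constant limits its difference. Fst, the gene of follistatin, and Cer1, the gene of the Nodal antagonist Cerberus, were below the filter. The brighter probe set of Fst had 45.8, 26.6 and 48.6, and the probe sets of Cer1 had 8.80, 2.40 and 6.50 in one and 8.10, 49.1 and 14.3 in the other, all below the constant. Dand5, another extracellular inhibitor gene below the filter, had 31.9, 6 and 108, above the constant on the day 2 array only. The mesendoderm targets Gsc, Mixl1, Foxa2 and Lhx1 were also below the filter. Of these, Mixl1 exceeded the constant on the day 1 array only, at 75.3, and Foxa2 on the day 2 array only, at 86.5.

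**Figure D4:**
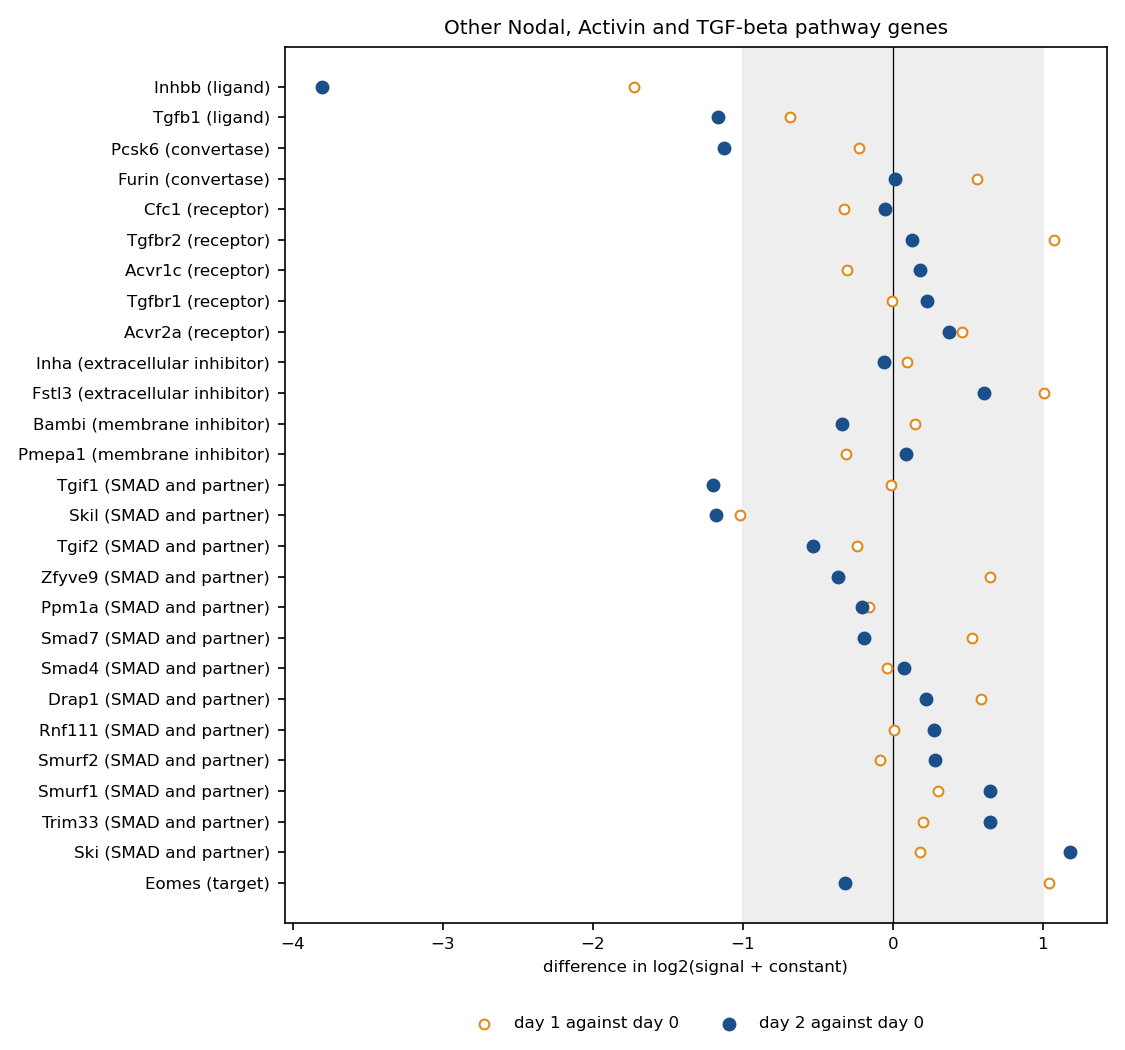
Difference in log2(signal + constant) of the 27 measured other pathway genes from day 0, at day 1 (open orange) and day 2 (filled blue), grouped by role from ligands at the top to targets at the bottom. The grey band covers differences under 2-fold. Inhbb stands apart at −3.80, and Tgfbr2, Fstl3 and Eomes lie right of the band at day 1 only.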

How the data were processed

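Deposited intensities of 3 arrays, 1 per day, were used. Per the submitters' processing notes the authors used MAS5, with no version named, and the deposited intensity values are linear. The 64 control probe sets, which only the day 2 column holds, were left out. The sources used here do not say whether the day 2 array was processed apart.

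Arrays were scaled to 1 shared 2% trimmed mean. Before log2 the 40th percentile of the pooled signals, 55.9, was added, and differences understate the change of dim genes. Probe sets with a mean signal of at least the constant were kept, 26925 of 45037, among them 18 of the 20 probe sets of the 10 genes. The brightest kept probe set on average stands for a gene. Gene names come from the platform's annotation: 34958 probe sets name 1 gene, 932 name several and were not used, and 9147 are unnamed. Of the first, 34754 matched RefSeq genes of GRCm38.p6 by Entrez identifier.

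Named genes were Pou5f1, the 10 genes, other pathway genes past 2-fold at day 2 with Smad4, Acvr2a, Fst and Cer1, the 2 nearest profiles of each lower gene and the markers. Other genes named (Furin, Smad7, Dand5, those past 2-fold at day 1 only, dim targets and chromosomal neighbours) were chosen after their values were seen. The members and lists were chosen with earlier results of these data known. The computation was tested on simulated data, with changes planted only in genes bright at day 0. That test covered neither signals below the constant nor differences as large as those of Lefty1 and Tdgf1. Alternatives changed the constant, the filter, the scaling and the probe sets used. Python 3.11.15, numpy 2.4.6 and pandas 2.3.3 were used.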

Additional observations from a re-analysis of the deposited data

How the results depend on the processing

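The counts of the 10 genes at least 2-fold lower kept within 1.5 times their value under every alternative tried: 6 at day 2 and 5 at day 1 throughout, the second also with the day 2 array left out of the filter, an alternative chosen after seeing the data. For day 2 against day 1 the count was 3 or 4. It was 3 when Nodal came to −0.87 with the constant doubled, to −0.99 with equal ribosomal protein medians and to −0.84 as the mean over its probe sets. No difference of the 10 genes past 2-fold changed sign. Of 250 recomputed differences of these genes, 14 moved by more than the SD between probe sets, those of Lefty1, Lefty2, Gdf3 and Smad2, and Smad2 was at −0.08 at day 2 when IDs with the ending _x_at, _s_at or _a_at were dropped. Other pathway genes at least 2-fold higher at day 2 numbered 2 with no filter, which admits dim genes, and 0 as the mean over probe sets, where Ski was at 0.93. Those lower numbered 4, against 5, with the constant doubled and when the IDs above were dropped. At day 1 these genes numbered 1 lower and 0 higher, against 2 and 3, with the constant doubled, 1 lower with quantile normalisation or as the mean over probe sets, and 0 higher with equal ribosomal protein medians. Over all genes, those higher at day 1 numbered 146 with the constant doubled, 469 with it halved and 202 when the filter stood at the 60th percentile, against 305, and at day 2 against day 1 the doubled constant gave 157 higher and 184 lower, against 266 and 337. With equal ribosomal protein medians the split over all genes at day 2 was 487 higher and 920 lower, against 668 and 718, and at day 1 it was 171 and 492, against 305 and 330. No paired analysis was possible because each day has 1 array. Signals below the constant limit the differences of Lefty1, Lefty2 and Inhbb.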
